A study of Mus musculus with 9 samples.

Results

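Mucosal epithelia defend their surface with secreted antimicrobial proteins, with antibody carried across the cell, and with protease inhibitors and chaperones released into the lumen. A set of 10 such genes was followed here in lesions of the mouse prostate: Reg3b, Reg3g, Pigr, Ltf, Lcn2, Cxcl15, Cd14, Slpi, Wfdc2 and Clu. They were chosen by name from known antimicrobial and mucosal immunity genes, with the log2 changes of these arrays already known, and each was read from 1 probe set, the only one annotated with that symbol alone. All 10, of 22180 genes with such a probe set, passed the filter on low signal that left 16635 genes for testing.

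The samples were lesions captured by laser from fixed prostates of male mice aged 12 months, of mixed strain background, and hybridised to 9 whole-transcript arrays, 1 per capture. The 3 groups held 3 arrays each. They were poorly differentiated solid tumours of PbCre;T-3Mb-Erg/+ mice, high-grade prostatic intraepithelial neoplasia (HG-PIN, dysplastic cells confined to the gland) of PbCre;T-3Mb-Erg/+ mice, and HG-PIN of PbCre mice without T-3Mb-Erg, called control HG-PIN here. Control HG-PIN is lesional tissue, not normal epithelium. PbCre is Cre recombinase under the probasin promoter, which acts in prostate epithelium, and was carried by the mice of all 3 groups. T-3Mb-Erg is an engineered allele, present in 1 copy, that models the fusion of Tmprss2 to Erg with loss of the genes between them. The tumour and HG-PIN captures with T-3Mb-Erg were paired in 3 mice, and replicate 1, 2 or 3 marks the same mouse in both groups.

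In mucosal tissue Reg3b and Reg3g encode lectins that bind bacteria, Ltf encodes lactoferrin, which binds iron, and Lcn2 encodes lipocalin 2, which captures bacterial siderophores. Pigr carries polymeric IgA from the base of the epithelial cell to the lumen. Slpi and Wfdc2 are secreted proteins of the whey acidic protein (WAP) type, Cd14 is a co-receptor for lipopolysaccharide, Cxcl15 is a chemokine of mouse epithelia, and Clu encodes clusterin, an extracellular chaperone. In the mouse gut and lung such genes respond to cytokines of the IL-17 and IL-22 families, which signal through STAT3, NF-kappaB and C/EBP factors.

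Promoters of 2 pairs of members are shown because each pair has related products and lies on 1 chromosome. The measured changes in tumours were also of similar size in the first pair and of different size in the second. These sizes hold for measured signal alone, since Reg3g in tumours lay below the background gauge given further on and Slpi lay near it. Each sequence is the 250 bases before the annotated start site in RefSeq, build GRCm38.p6, written 5′ to 3′ on the strand of the gene. Capitals mark matches on either strand to TTCNNNGAA (STAT type), to the NF-kappaB consensus of purines and pyrimidines, or to TTGCNNAA (C/EBP type). The first pair encodes the 2 lectins.
Reg3b (chr6:78370635-78370884, plus strand): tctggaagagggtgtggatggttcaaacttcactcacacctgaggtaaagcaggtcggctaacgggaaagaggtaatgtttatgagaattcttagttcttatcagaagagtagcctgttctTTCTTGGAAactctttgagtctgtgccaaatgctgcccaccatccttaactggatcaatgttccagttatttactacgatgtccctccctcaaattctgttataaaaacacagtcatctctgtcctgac
Reg3g (chr6:78468875-78469124, minus strand): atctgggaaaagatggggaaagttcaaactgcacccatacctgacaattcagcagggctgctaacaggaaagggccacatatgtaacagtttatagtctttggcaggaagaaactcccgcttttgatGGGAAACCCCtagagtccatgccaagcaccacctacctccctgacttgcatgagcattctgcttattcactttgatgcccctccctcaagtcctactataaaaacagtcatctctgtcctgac
The second pair encodes the 2 WAP proteins.
Slpi (chr2:164356508-164356757, minus strand): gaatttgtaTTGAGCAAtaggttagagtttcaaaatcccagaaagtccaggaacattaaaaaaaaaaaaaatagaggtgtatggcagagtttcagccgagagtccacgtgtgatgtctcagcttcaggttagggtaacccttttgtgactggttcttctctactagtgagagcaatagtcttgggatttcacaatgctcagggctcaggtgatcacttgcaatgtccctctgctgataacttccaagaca
Wfdc2 (chr2:164562465-164562714, plus strand): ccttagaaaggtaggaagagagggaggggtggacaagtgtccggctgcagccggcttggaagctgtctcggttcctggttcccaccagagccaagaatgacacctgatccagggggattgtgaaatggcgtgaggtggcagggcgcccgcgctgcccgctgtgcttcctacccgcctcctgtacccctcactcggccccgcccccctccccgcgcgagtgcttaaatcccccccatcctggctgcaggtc
A global alignment of the Reg3b and Reg3g sequences had 173 identical bases over 253 columns (68.4%), and the longest shared run was 20 bases, ending at the start site in both. Slpi and Wfdc2 had 43% identity, with a longest shared run of 7 bases. Reg3b held 1 STAT-type match, whose first base lies at -129 from the start site, and Reg3g held 1 NF-kappaB-type match at -123. Slpi held 1 C/EBP-type match at -241 and Wfdc2 held none of the 3 types. Of 32851 promoter windows of the same length, 7.02% held the STAT-type letters, 7.25% the NF-kappaB consensus and 9.56% the C/EBP-type letters. Promoter windows were found for 8 of the 10 members. Of the other members, Ltf and Lcn2 each held 1 C/EBP-type match, at -75 and -216, and Pigr and Cxcl15 held none of the 3 types, and no matches overlapped. These matches describe letters in the windows and were not tested as binding sites.

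Values are log2 of the deposited intensity. Levels of different probe sets are not comparable with each other, so only the same gene is compared across arrays. As a gauge of background, the 95th percentile of mean log2 signal over 1394 olfactory and vomeronasal receptor genes was 4.80. Changes are of measured signal. Where all arrays of 1 group lay at or below 4.80, the fold is a lower bound, with those arrays set to 4.80. Signal ranges differed between arrays, with a 95th percentile of log2 signal of 5.81 to 6.51 in T-3Mb-Erg tumours, 5.97 to 6.41 in HG-PIN of the same mice and 5.77 to 6.18 in control HG-PIN. Sums of luminal epithelial markers were lower on every tumour array than on any HG-PIN array. The summed intensity of 18 of the 20 listed luminal genes was 428 to 572 in T-3Mb-Erg tumours, 1704 to 2301 in HG-PIN of the same mice and 782 to 1851 in control HG-PIN. Of the 18, the group mean was above 4.80 for 4 in tumours and for 16 in HG-PIN of either genotype. In bulk captures, fewer epithelial cells and less RNA per epithelial cell cannot be told apart.

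**Figure D1:**
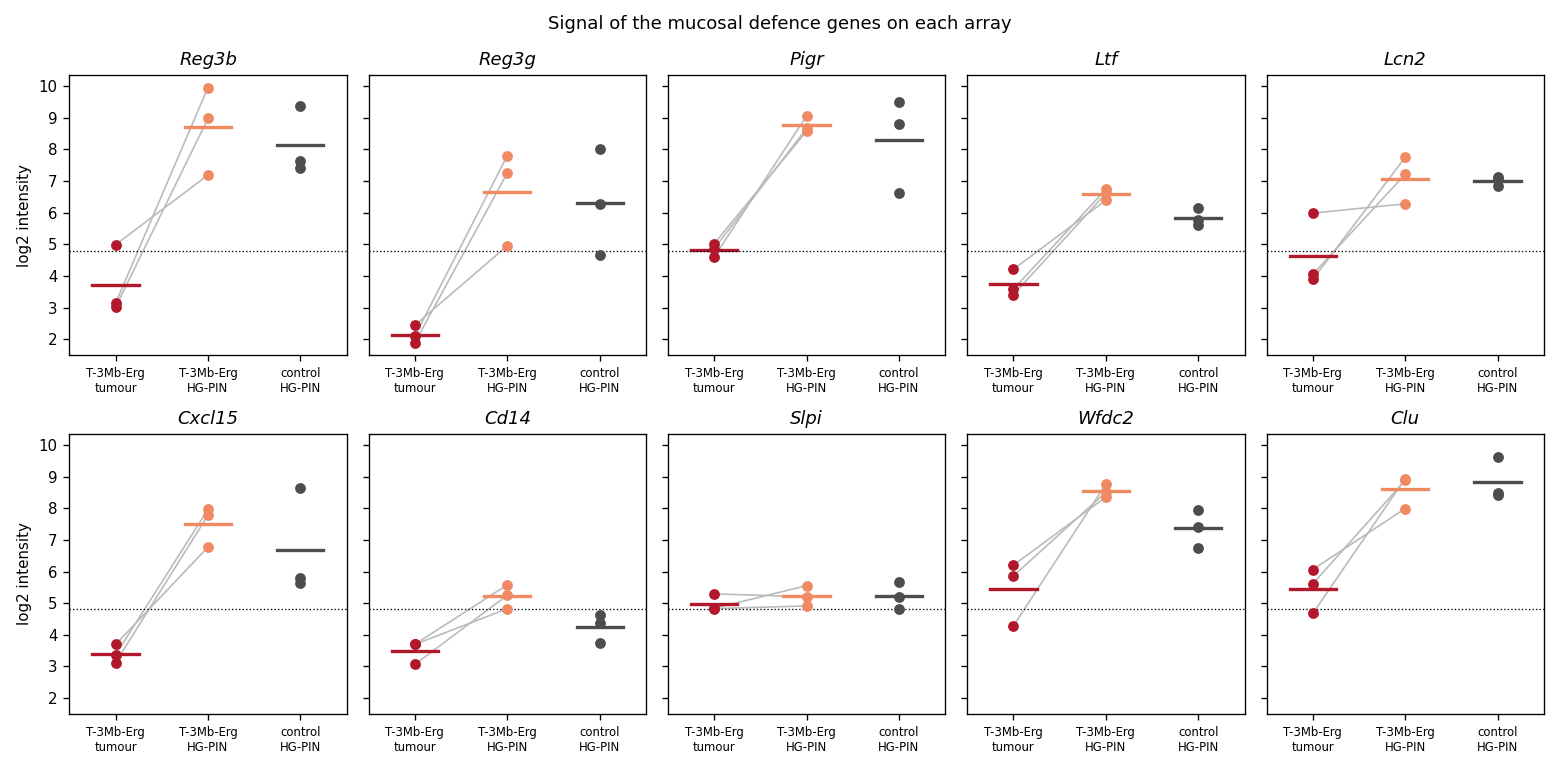
Log2 intensity of the 10 mucosal defence genes (vertical axis) on each array of the 3 groups (horizontal axis); points are arrays, bars are group means, grey lines join captures of the same mouse, and the dotted line is the receptor gene level of 4.80. Tumour arrays lie below both HG-PIN groups for every gene but Slpi, although Cd14 in tumours and in control HG-PIN lies below the dotted line.

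The first comparison set T-3Mb-Erg tumours against HG-PIN of the same mice. All 10 members had a negative log2 change, and 9 of 10, all but Slpi, had tumour arrays below all HG-PIN arrays without overlap. Across all genes tested, 51.1% had a negative change and 6.43% had groups that did not overlap in that direction. The median change of the members was -3.12 on the log2 scale, and that of all genes was -0.0077. Reg3b, Reg3g, Cxcl15 and Pigr were already known to be among the largest falls of this contrast, so they are described without a test.

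The antimicrobial lectin Reg3b had log2 levels of 3.14, 3.01 and 4.99 in T-3Mb-Erg tumours, against 9.96, 8.98 and 7.19 in T-3Mb-Erg HG-PIN. Its mean was 3.71 ± 1.11 in tumours and 8.71 ± 1.40 in HG-PIN (SD, n = 3 each), a change of -5.00 in measured signal (SE 0.77, 31.9-fold lower), with 1 of the 3 tumour arrays above the receptor level. The fold thus depends partly on background values. Mouse 3 had both the highest tumour value and the lowest HG-PIN value, so the difference within that mouse was -2.20, against -6.82 and -5.97 in mice 1 and 2. Its paralog Reg3g stood at 2.10, 1.89 and 2.44 in tumours, against 7.80, 7.25 and 4.95 in HG-PIN. Its measured change was -4.52 (SE 0.81). All 3 tumour values lay below the receptor level, against which Reg3g was at least 3.65-fold lower in tumours, and differences within single mice are not ranked for it. The coding sequences were not compared here, so signal shared between the probe sets of the 2 lectins was not tested.

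Pigr, the polymeric immunoglobulin receptor, was even among the T-3Mb-Erg HG-PIN captures and among the tumours. It had 4.60, 4.86 and 5.02 in tumours, against 9.06, 8.67 and 8.58 in HG-PIN, with a change of -3.94 (SE 0.61, 15.3-fold). The differences within mice 1, 2 and 3 were -4.46, -3.80 and -3.55. The chemokine Cxcl15 had 3.12, 3.37 and 3.69 in tumours, against 7.78, 7.96 and 6.77 in HG-PIN, with a measured change of -4.11 (SE 0.68). All 3 tumour arrays lay below the receptor level, against which Cxcl15 was at least 6.50-fold lower in tumours.

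The other 6 members were set against the threshold of limma's fit over all genes, a Benjamini-Hochberg adjusted p under 0.05. Of these 6, Ltf, Clu, Wfdc2 and Cd14 passed it, all lower. With Reg3b, Reg3g, Cxcl15 and Pigr counted too, 8 of the 10 members lay under it, all lower. Of all genes 0.216% were called lower and 0.283% in either direction. Because the list was drawn up with this contrast known, the count of members is a description and not independent support. Lactoferrin, Ltf, fell to 3.59, 4.21 and 3.41 in tumours, against 6.74, 6.39 and 6.61 in HG-PIN. Its measured change of -2.84 (SE 0.30) had an adjusted p of 0.00400 in limma, and it held in all 18 other settings, with adjusted p up to 0.0423. The 3 tumour values are below the receptor level and the 3 HG-PIN values are above it, so Ltf was at least 3.42-fold lower in tumours.

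Clusterin, Clu, fell to 5.61, 4.67 and 6.06 in tumours, against 8.88, 8.94 and 7.99 in HG-PIN. The change was -3.15 (SE 0.51, 8.90-fold, limma adjusted p = 0.0328). Mouse 3 had the smallest of the 3 differences at -1.93, against -3.27 and -4.26 in mice 1 and 2. Wfdc2, of the WAP pair, fell to 5.86, 6.20 and 4.28 in tumours, against 8.51, 8.36 and 8.76 in HG-PIN. Its change was -3.09 (SE 0.52, 8.53-fold, limma adjusted p = 0.0370), and here mouse 3 had the largest difference, at -4.48 against -2.65 and -2.15. For Clu and for Wfdc2, 2 of the 3 tumour arrays lay above the receptor level, so their folds depend partly on background values. Cd14, the lipopolysaccharide co-receptor, fell to 3.70, 3.06 and 3.70 in tumours, against 5.58, 5.25 and 4.82 in HG-PIN. The measured change of Cd14 was -1.73 (SE 0.30, limma adjusted p = 0.0409). Its 3 tumour values lay below the receptor level and its HG-PIN values only just above it, so Cd14 was at least 1.33-fold lower in tumours.

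Lcn2 and Slpi did not pass. Lcn2, the siderophore-binding lipocalin, had 3.89, 4.05 and 5.99 in tumours, against 7.75, 7.21 and 6.28 in HG-PIN, a change of -2.44 (SE 0.55, limma adjusted p = 0.113). Mice 1 and 2 differed by -3.86 and -3.16, while mouse 3 differed by -0.29. Slpi, an inhibitor of leukocyte elastase, had 4.83, 4.84 and 5.29 in tumours, against 4.91, 5.55 and 5.20 in HG-PIN. These values overlap, and the change of -0.24 had a 95% interval from -0.89 to 0.42 (limma adjusted p = 0.980). Slpi and Wfdc2, both on chromosome 2, had intervals that do not overlap, since that of Wfdc2 ran from -4.23 to -1.95, although the difference between the 2 genes was not tested.

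The calls other than that of Ltf depended on the arrays and settings used. When mouse was entered as a fixed replicate block, 4 of the 10 members passed. Ltf stood at adjusted p = 0.0251 in limma, while Clu, Wfdc2 and Cd14 stood at 0.0750, 0.0848 and 0.0683. Without tumour replicate 1, the adjusted p of Clu, Wfdc2 and Cd14 was 0.162, 0.147 and 0.153, and without tumour replicate 3 it was 0.0551, 0.0973 and 0.0973. With replicate 1 of T-3Mb-Erg HG-PIN left out it was 0.172, 0.172 and 0.202, without replicate 2 it was 0.133 for the 3 genes, and without replicate 3 it was 0.0561, 0.106 and 0.0634. Leaving out control HG-PIN replicate 3 ended the calls of Wfdc2 (0.0713) and Cd14 (0.0716), and leaving out tumour replicate 3 let Lcn2 pass (0.0279). With 8 units added before log2 all 3 genes stood at 0.0514, and with no signal filter Cd14 stood at 0.0520. The direction of the change was negative for all 10 members in each of the 18 settings.

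**Figure D2:**
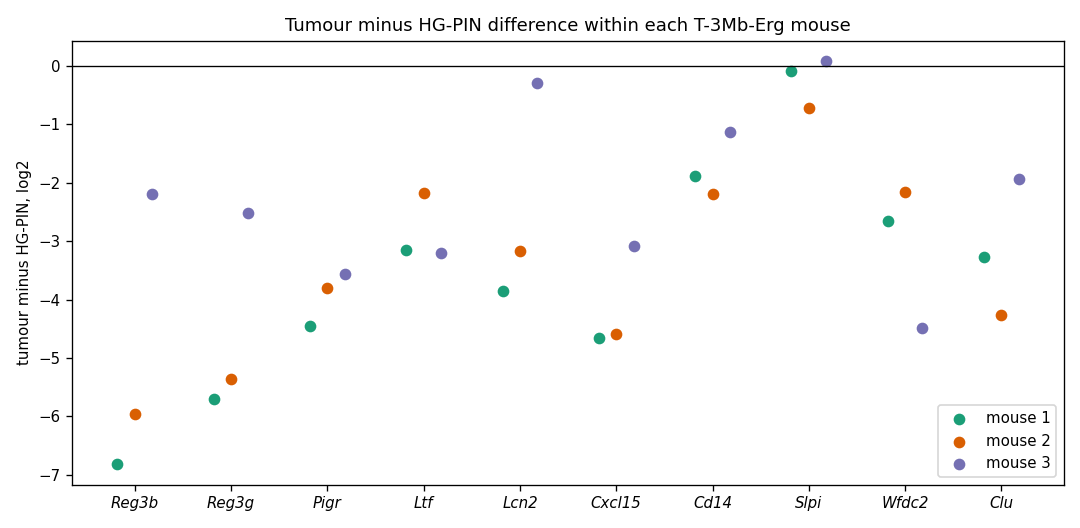
Tumour minus HG-PIN difference in log2 intensity (vertical axis) for the 10 genes (horizontal axis) in each of the 3 T-3Mb-Erg mice, 1 point per mouse. Mouse 3 has the smallest difference for Reg3b, Pigr, Lcn2 and Clu and the largest for Wfdc2. Tumour signal of Reg3g, Ltf, Cxcl15 and Cd14 was at or below the receptor level on all arrays, so the mice are not ranked for these genes.

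The same tumours were next set against control HG-PIN, which came from other mice. This comparison shares the tumour arrays with the first, so its values stand beside those above and are not a second test of them. All 10 members had a negative change, against 53.7% of all genes, with a median of -2.83 against -0.03 over all genes. The groups did not overlap for 9 of 10 members, against 7.51% of all genes in that direction. The 9 include Cd14, which lay below the receptor level in both groups, at up to 3.70 in tumours and from 3.73 in control HG-PIN. In limma 2 members were called lower, against 0.0721% of all genes lower and 0.18% in either direction.

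The 2 members called were Ltf and Clu. Ltf had 3.59, 4.21 and 3.41 in T-3Mb-Erg tumours, against 6.16, 5.78 and 5.60 in control HG-PIN, and fell by 2.11 on the log2 scale (SE 0.29, at least 2.06-fold against the receptor level, limma adjusted p = 0.0253). Clu had 5.61, 4.67 and 6.06 in tumours, against 8.49, 8.43 and 9.61 in control HG-PIN, and fell by 3.39 (SE 0.50, 10.5-fold, limma adjusted p = 0.0288). The fold of Clu depends partly on background values here too. Both calls ended when either of 2 control HG-PIN arrays or either of 2 tumour arrays was left out. Without control HG-PIN replicate 1 the adjusted p of Ltf and Clu was 0.153 and 0.149, without control HG-PIN replicate 3 it was 0.114 and 0.135, without tumour replicate 1 it was 0.119 for both, and without tumour replicate 3 it was 0.0744 and 0.0673. The call of Clu also ended when replicate 1 (0.0513) or replicate 2 (0.0518) of T-3Mb-Erg HG-PIN was left out, which are not part of the contrast but share its estimate of the spread. On the 6 arrays of the 2 groups alone neither passed (0.0640 for Ltf and 0.0714 for Clu).

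Control HG-PIN captures differed widely for the lectins, Pigr and Cxcl15. Reg3b had 9.38, 7.64 and 7.42 in control HG-PIN and was 21.6-fold lower in tumours by measured signal (change -4.43, limma adjusted p = 0.0529). Only 1 of the 3 tumour arrays of Reg3b lay above the receptor level. Its fold thus depends partly on background values and is not comparable with the lower bounds of other members. Reg3g had 8.02, 4.65 and 6.29 in control HG-PIN and was at least 2.86-fold lower in tumours (measured change -4.18, limma adjusted p = 0.0665). Both lectins were highest in control replicate 1. Pigr had 9.48, 6.64 and 8.79 in control HG-PIN (change -3.48, limma adjusted p = 0.0548), and its lowest value was on replicate 2, the array with the lowest summed luminal marker signal of the group, 782 against 1851 and 1768. The tumour signal of Pigr lay near the receptor level, as given above. Cxcl15 had 8.66, 5.80 and 5.63 in control HG-PIN and was at least 3.71-fold lower in tumours (measured change -3.30, limma adjusted p = 0.0823). Without control replicate 2 the adjusted p of Reg3b, Reg3g and Pigr was 0.0447, 0.0144 and 0.00237, and without tumour replicate 2 that of Reg3b and Pigr was 0.0438 and 0.0385. The lectins, Pigr and Cxcl15 were known to be low on the same tumour arrays, so these p values describe how the fit moves and support nothing further.

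For Lcn2, control HG-PIN was tight at 7.12, 7.06 and 6.86, and the change in tumours was -2.37 (SE 0.54, limma adjusted p = 0.118). For 8 of the 10 members, Wfdc2 and Cd14 among them, mean levels in control HG-PIN were nearer to tumours than those in T-3Mb-Erg HG-PIN. Wfdc2 had 7.95, 6.75 and 7.42 in control HG-PIN (change in tumours -1.93, limma adjusted p = 0.181), and Cd14 had 4.63, 3.73 and 4.37 (change -0.75, limma adjusted p = 0.424), all 3 below the receptor level. Slpi had 5.20, 5.68 and 4.82 in control HG-PIN, which overlapped its tumour values, with a change of -0.24 and an interval from -0.89 to 0.41. Its signal lay near the receptor level here too.

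**Figure D3:**
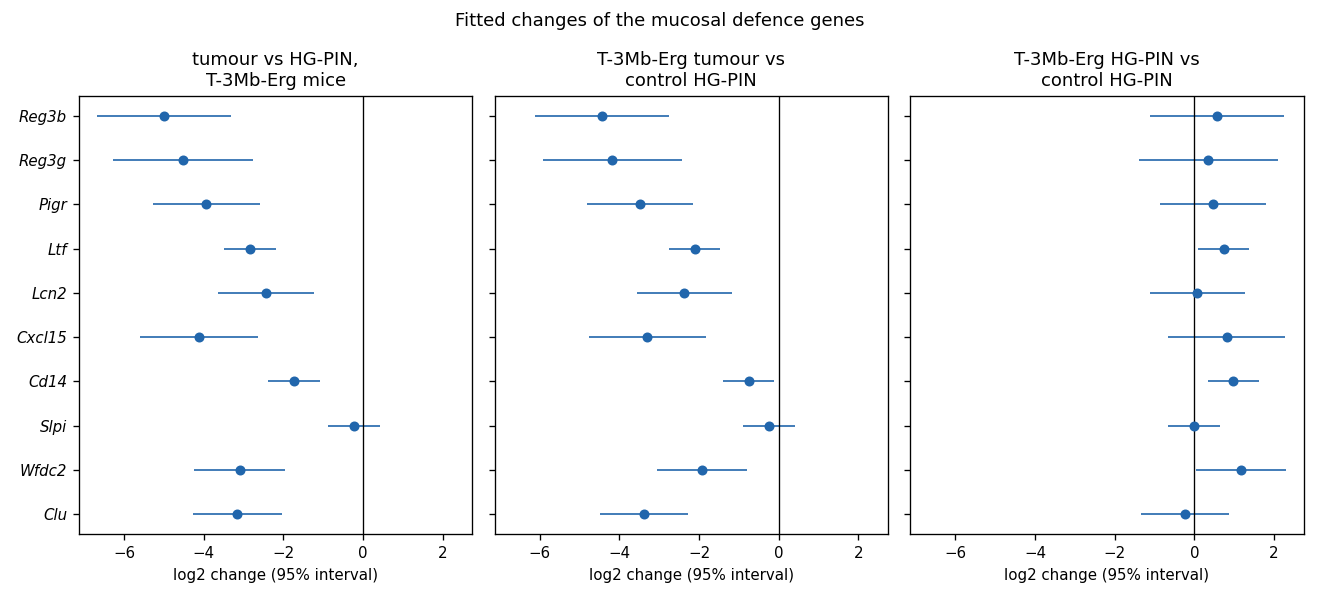
Fitted log2 change (horizontal axis) of the 10 genes (vertical axis) with its 95% interval in the 3 comparisons, tumour against HG-PIN of T-3Mb-Erg mice, T-3Mb-Erg tumour against control HG-PIN, and T-3Mb-Erg HG-PIN against control HG-PIN. In the comparisons with tumours the intervals of 9 genes lie below 0, and that of Slpi spans it.

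The last comparison set T-3Mb-Erg HG-PIN against control HG-PIN, the same lesion in both genotypes. No member passed in limma, where 0% of all genes were called. At an unadjusted p under 0.05, 3 members were higher, against 1.83% of all genes, and 0 were lower, against 2.27%. The same 3, Ltf, Cd14 and Wfdc2, had groups that did not overlap, against 4.86% of all genes in that direction. The members' median change was 0.51, against -0.0036 over all genes, and 8 of 10 were positive, against 49.5% of all genes.

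Of the 3, Cd14 had log2 levels of 5.58, 5.25 and 4.82 in T-3Mb-Erg HG-PIN, against 4.63, 3.73 and 4.37 in control HG-PIN, a measured difference of 0.98 (95% interval 0.33 to 1.62, limma adjusted p = 0.998). All 3 control values of Cd14 lay below the receptor level, and its level was at least 1.33-fold higher in T-3Mb-Erg HG-PIN. Wfdc2 had 8.51, 8.36 and 8.76 in T-3Mb-Erg HG-PIN, against 7.95, 6.75 and 7.42 in control HG-PIN, a difference of 1.17 (0.04 to 2.30, limma adjusted p = 0.998). Ltf had 6.74, 6.39 and 6.61, against 6.16, 5.78 and 5.60 in control HG-PIN, a difference of 0.73 (0.09 to 1.38, limma adjusted p = 0.998). These 3 genes kept a positive difference in all 17 other settings and passed the adjusted threshold in none of them. Luminal markers moved in the same direction on these arrays. Of the 18 tested, 15 were positive with a median of 0.33, none passed, and their part in the differences was not tested.

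The remaining members gave no call and wide intervals. Reg3b averaged 8.71 ± 1.40 in HG-PIN with T-3Mb-Erg and 8.15 ± 1.07 in control HG-PIN (SD, n = 3 each), and the interval of its difference ran from -1.11 to 2.24. For Reg3g the interval ran from -1.40 to 2.10, for Pigr from -0.87 to 1.80 and for Cxcl15 from -0.66 to 2.28. The differences of Lcn2 (0.07, interval -1.12 to 1.26), Slpi (-0.0082, interval -0.66 to 0.64) and Clu (-0.24, interval -1.34 to 0.87) were near 0. A level 2-fold higher in T-3Mb-Erg HG-PIN lies inside the intervals of the lectins, Pigr, Cxcl15 and Lcn2. A level 2-fold lower lies inside those of the lectins, Lcn2 and Clu.

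The members were also compared with other genes of the same functions and with markers of cells that also make some of them. Of 36 other antimicrobial and mucosal genes tested, 27 were lower in T-3Mb-Erg tumours than in their HG-PIN, with a median change of -0.45. The single gene that passed was Pglyrp1, a peptidoglycan recognition protein, which fell to 4.68, 5.95 and 4.80 in tumours, against 7.91, 7.83 and 8.02 in HG-PIN (change -2.77, 6.82-fold, limma adjusted p = 0.0294). Against control HG-PIN, 28 of the 36 were lower in tumours with a median of -0.54 and none passed. The smallest p values there were those of Cxcl17, a mucosal chemokine (-1.69, limma adjusted p = 0.0848), and Defb50, a beta-defensin (-5.00, limma adjusted p = 0.0859). Between the HG-PIN groups 24 of the 36 had a positive difference, T-3Mb-Erg minus control, with a median of 0.14, and none passed. The smallest p values were those of Pglyrp1 (0.89) and Wfdc3, a WAP family gene (-1.02), both at limma adjusted p = 0.998.

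Genes that sense microbes or carry the cytokine signals were split in direction. Of 30 tested, 14 were lower and 16 higher in tumours than in T-3Mb-Erg HG-PIN, with a median of 0.06, and none passed. The smallest p values were those of Il22ra1, a subunit of the IL-22 receptor (4.82 ± 0.24 in tumours and 4.18 ± 0.20 in HG-PIN, limma adjusted p = 0.454), and Cebpb, a C/EBP factor (5.67 ± 0.19 and 5.01 ± 0.04, limma adjusted p = 0.563, SD, n = 3 each). Against control HG-PIN, 13 of the 30 were lower and 17 higher in tumours, with a median of 0.12, and none passed. There, the smallest p values were those of Cebpb (1.22, limma adjusted p = 0.106) and Il17re, a receptor of IL-17 cytokines (-0.65, limma adjusted p = 0.391). Between the HG-PIN groups 16 differences, T-3Mb-Erg minus control, were positive and 14 negative, and none passed. The smallest p values were those of Il17re (-0.63) and Il1b, a pro-inflammatory cytokine (-0.52), both at limma adjusted p = 0.998.

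Among 8 genes of antibody transport and polarised vesicle traffic, all were lower in tumours than in T-3Mb-Erg HG-PIN, with a median of -0.21, and none passed. Rab25, a small GTPase of apical recycling in epithelia, had 3.76, 3.76 and 3.28 in tumours, against 5.51, 4.92 and 4.53 in T-3Mb-Erg HG-PIN (change -1.39, limma adjusted p = 0.0928), and Rab3d, a secretory vesicle GTPase, followed (-0.68, limma adjusted p = 0.851). Against control HG-PIN, 7 of the 8 were lower in tumours, and Rab25 fell by 1.77 (limma adjusted p = 0.0448). Jchain, which joins the IgA that Pigr carries and is made by plasma cells, had 3.81, 4.69 and 6.08 in tumours, against 4.92, 5.17 and 4.96 in T-3Mb-Erg HG-PIN (change -0.16, limma adjusted p = 0.995). Its values in both groups overlap.

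Neutrophils store lactoferrin and lipocalin 2, and macrophages express Cd14, so markers of both were read on the same arrays. The summed intensity of the 14 neutrophil markers lay between 182 and 489 in T-3Mb-Erg tumours, between 254 and 414 in their HG-PIN and between 223 and 268 in control HG-PIN. The group mean was above the receptor level for 1 of the 14 in tumours. It was above for 2 in HG-PIN of these mice and for 3 in the control group. With most markers at background, the overlap of the sums cannot show whether neutrophil content differed. Of the 8 markers that passed the signal filter, 6 were lower in tumours than in T-3Mb-Erg HG-PIN, with a median of -0.09. None passed the test. The granulocyte receptor gene Csf3r had 3.33, 3.53 and 3.65 in tumours, against 3.63, 3.45 and 3.87 in T-3Mb-Erg HG-PIN, all below the receptor level and overlapping. S100a9, which inflamed epithelium also makes, averaged 4.72 ± 0.89 in tumours and 5.72 ± 0.82 in their HG-PIN (SD, n = 3 each, limma adjusted p = 0.711), and Itgam, an integrin of myeloid cells, averaged 3.65 ± 0.05 and 3.94 ± 0.20 (limma adjusted p = 0.902). S100a8 had 4.93, 3.78 and 8.28 in tumours, against 7.46, 5.85 and 6.82 in T-3Mb-Erg HG-PIN, with its highest value on tumour replicate 3. That array also had the widest signal range of the tumours and the highest tumour value of 7 of the 10 members, and the part of either in the other was not tested. The 7 include Reg3g and Cxcl15, whose tumour values all lay below the receptor level, so their order there may be background. Against control HG-PIN the smallest p values were those of Mpo (-0.49) and Elane (0.18), genes of neutrophil granules, at limma adjusted p = 0.753 and 0.892.

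The 12 macrophage markers summed to between 301 and 579 in T-3Mb-Erg tumours, between 303 and 489 in their HG-PIN and between 311 and 352 in control HG-PIN. The group mean was above the receptor level for 5 of the 12 in tumours. It was above for 6 in HG-PIN of these mice and for 3 in the control group. The sums thus include many markers at background, and their overlap cannot show whether macrophage content differed. Of 11 markers tested, 6 were lower and 5 higher in tumours than in T-3Mb-Erg HG-PIN, with a median of -0.0057, and none passed. The smallest p values were those of C1qc, a complement gene (-0.46, limma adjusted p = 0.685), and Aif1 (-0.46, limma adjusted p = 0.827), and against control HG-PIN those of the lysosomal gene Cd68 (0.74, limma adjusted p = 0.636) and Lyz2 (1.03, limma adjusted p = 0.700). Their defining gene Csf1r was at 3.27, 3.80 and 4.68 in tumours, against 3.90, 4.86 and 4.55 in T-3Mb-Erg HG-PIN. Between the HG-PIN groups, where Cd14 was higher in T-3Mb-Erg HG-PIN without overlap, 9 of the 11 macrophage markers were also positive with a median of 0.15, none passed, and their part in the Cd14 difference was not tested. Plasma and B cell markers, 9 of 11 listed, summed to between 292 and 298 in tumours, between 222 and 282 in HG-PIN of these mice and between 188 and 231 in control HG-PIN. The group mean was above the receptor level for 2 of the 9 in each group, with Sdc1 among the 2. With most markers at background, these sums cannot show whether plasma or B cell content differed. Of the 7 tested, 3 were lower and 4 higher in tumours than in T-3Mb-Erg HG-PIN and none passed. Sdc1, a syndecan that epithelium also makes, was the brightest of the 7 and averaged 7.26 ± 0.26 in tumours, 6.69 ± 0.37 in their HG-PIN and 5.80 ± 0.66 in control HG-PIN (SD, n = 3 each, limma adjusted p = 0.883 for the first pair). Cd79b, a B cell receptor subunit, averaged 3.50 ± 0.29 in tumours and 3.76 ± 0.66 in T-3Mb-Erg HG-PIN (limma adjusted p = 0.977), both below the receptor level. Against control HG-PIN the smallest p values were those of Sdc1 (1.46, limma adjusted p = 0.192) and Mzb1 (-0.52, limma adjusted p = 0.670).

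Luminal, secretory and fibroblast lists stood further apart between tumours and HG-PIN. Of the 18 luminal genes tested, all were negative between tumours and HG-PIN of T-3Mb-Erg mice with a median of -1.73, and 8 passed, Krt8, Epcam, Cdh1, Cldn4, Elf3, Ehf, Foxa1 and Spint1, with Krt8 a luminal keratin (4.71, 5.59 and 4.86 in tumours, against 8.26, 7.68 and 7.88 in HG-PIN). Seminal vesicle and prostate secretion genes, 12 of 14 listed, summed to between 128 and 771 in tumours, between 846 and 6918 in HG-PIN of these mice and between 2859 and 4449 in control HG-PIN. Of these 12, 10 were lower in tumours than in T-3Mb-Erg HG-PIN with a median of -1.38, and none passed, the smallest p values being those of the seminal vesicle genes Svs5 (-5.45, limma adjusted p = 0.358) and Svs2 (-5.05, limma adjusted p = 0.374). The 10 fibroblast markers summed to between 481 and 3367 in tumours, between 262 and 653 in HG-PIN of these mice and between 189 and 231 in control HG-PIN, and all 9 tested were positive in tumours with a median of 1.55, none passing. The smallest p values were those of Pdgfra (1.95, limma adjusted p = 0.168) and Thy1 (1.99, limma adjusted p = 0.243), surface proteins of fibroblasts. Against control HG-PIN, Cldn4 and Foxa1 passed among the luminal genes, and in the fibroblast list Thy1 (2.79, limma adjusted p = 0.0665) and Col1a1 (2.46, limma adjusted p = 0.0773) had the smallest p values, as had Mme (-2.48, limma adjusted p = 0.157) and Spink1 (-4.27, limma adjusted p = 0.227) among the secretion genes. The members' median of -3.12 stands beside these medians, and the part of a changed epithelial share in it was not tested. The sizes of the medians are not ranked, since the members were chosen with this contrast known. In tumours, the mean was above the receptor level for only 4 of the 18 luminal genes, which limits their measured falls.

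**Figure D4:**
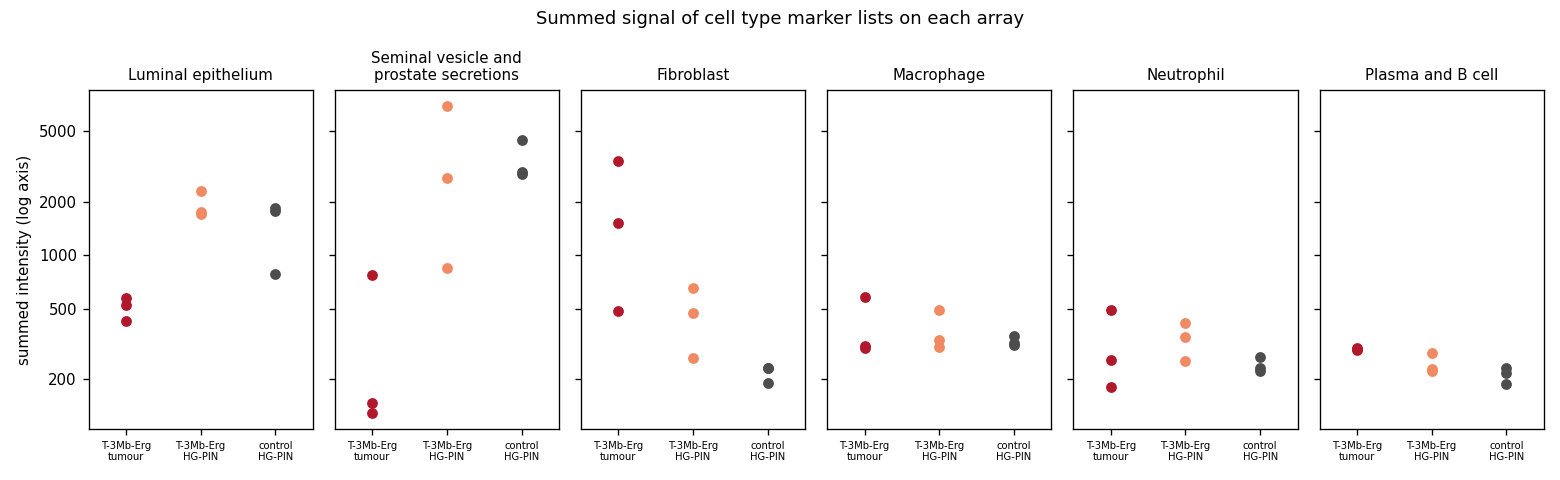
Summed intensity of 6 marker lists (vertical axis, log scale) on each array of the 3 groups (horizontal axis), 1 point per array. Luminal sums lie between 428 and 572 in tumours and at 782 or above on all HG-PIN arrays. Macrophage and neutrophil sums of the groups overlap. In any group, at most 6 of 12 macrophage and 3 of 14 neutrophil markers had a mean above the receptor level. That overlap thus cannot show whether the content of these cells differed. Plasma and B cell sums have the same limit, with 2 of 9 markers above that level in each group.

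Within the set, pairs of members differed in how closely they followed each other over the 6 HG-PIN arrays. There, Reg3b and Reg3g had a Pearson correlation of 0.89, Reg3b and Lcn2 0.85, and Reg3b and Cxcl15 0.83, while Ltf had 0.90 with Wfdc2 and 0.83 with Cd14. Reg3b had 0.35 with Wfdc2, and Slpi had -0.66 with Pigr. Over all 9 arrays the correlation of Reg3b with Reg3g was 0.96, and with Slpi it was 0.39. Ltf, Wfdc2 and Cd14 are the 3 members whose HG-PIN groups did not overlap, so their values over the 6 arrays include that gap. All 3 control HG-PIN values of Cd14 also lay below the receptor level. The correlations describe 6 or 9 arrays that share the differences in epithelial markers and signal range given above.

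The genes most like each member over the 9 arrays are given by Pearson's correlation of log2 values, followed by the value over the 6 HG-PIN arrays, with no p. The first value includes the gap between tumours and HG-PIN, which the second does not. The second still includes any gap between the HG-PIN groups. Reg3b was closest to Psmg3 (0.98, then 0.88), Ralgapa2 (0.97, then 0.77) and Sp100 (0.97, then 0.75). Reg3g was closest to Creb3l4 (0.985, then 0.995), Tmem30b (0.98, then 0.96) and the epithelial cadherin gene Cdh1 (0.98, then 0.93). For Pigr they were Tspan1 (0.99, then 0.96), Foxa1 (0.99, then 0.98) and Gsdmc2 (0.99, then 0.94). Foxa1, Cdh1, Elf3 and Spint1 are in the luminal list described above. For Ltf the closest was Pglyrp1 (0.98, then 0.92), followed by Cbr2 (0.98, then 0.80) and Cyp2f2 (0.97, then 0.87). Lcn2 was closest to Psmg3 (0.98, then 0.85), Pik3ip1 (0.97, then 0.84) and Reg3b (0.96, then 0.85). For Cxcl15 the closest was the phosphate transporter gene Slc34a2 (0.98, then 0.98), then Reg3g (0.96, then 0.80) and Cbr2 (0.95, then 0.88). Psmg3 and Cbr2 thus stood near more than 1 member. Cd14 was closest to Ccdc181 (0.99, then 0.99), Pex14 (0.95, then 0.94) and the epithelial factor Elf3 (0.95, then 0.99). Wfdc2 was closest to the protease inhibitor Spint1 (0.97, then 0.88), Tmem164 (0.96, then 0.94) and Ccl26 (0.96, then 0.88). Clu was closest to Prkab1 (0.99, then 0.95), Ckmt1 (0.95, then 0.85) and Plet1 (0.95, then 0.57). Slpi was closest to Pou6f1 (0.97, then 0.98), Borcs5 (0.94, then 0.92) and Lcn9 (0.92, then 0.97), none of which was among the closest genes of another member.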

How the data were processed

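Per the labels' protocols, lesions were laser-captured from fixed prostate sections, and RNA was amplified with NuGEN Ovation reagents for Affymetrix Mouse Gene 2.0 ST arrays. The deposited tables hold linear intensity (1.36 to 13922, array medians 13.6 to 15.4) of 41345 probe sets. How the authors corrected, summarised and normalized it is not given in the sources used here. An allele carried by both genotypes is not reported here.

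Names came from the platform annotation, updated through Entrez identifiers with RefSeq (GRCm38.p6). Exactly 1 symbol was listed for 23521 probe sets, several for 1814 and none for 16010. The brightest probe set by mean log2 over 9 arrays was kept per symbol. Intensities were log2-transformed with no pseudocount, and the lowest 25% of genes by mean (log2 below 3.25) were removed. limma 3.58.1 in R 4.3.3 fitted group means over the 9 arrays with the mouse as a random block (consensus correlation -0.01) and a variance trend. p values were adjusted by Benjamini-Hochberg over 16635 genes, and called means below 0.05. The mouse pairs tumour and HG-PIN per the labels. Deviations from group means of the same mouse correlated at 0.17, 0.10 and -0.30. The fit was also run on simulated data with independent noise and no shared mouse effect or background floor. That run therefore cannot test how the fit handles pairing or signal near background. Alternatives were quantile normalization, no filter, 8 units added before log2, no mouse block, a fixed mouse block, the 6 arrays compared, array weights, a signal range term, the mean of probe sets, and each array left out. Fits with weights or an array left out kept the consensus correlation. The members, lists and tests were chosen with earlier results of these data known. Named genes were all 10 members, in other lists the called genes or else the 2 with the smallest p (for marker lists and antibody transport, printed for the comparisons with tumours alone), and the 3 genes most correlated with each member, while Csf3r, Csf1r, Krt8, Jchain and S100a8 were named after their values were seen. The number of arrays limits the precision.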

Additional observations from a re-analysis of the deposited data

How the results depend on the processing

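Tumours against T-3Mb-Erg HG-PIN gave 47 called genes, of which 8 were members. The number of genes was 72 with quantile normalization, 20 with 8 units added before log2, 409 with array weights, 193 with the signal range term and 26 with the fixed mouse replicate block. It ran from 6 to 191 when single arrays were left out. Members called numbered 1 with 8 units added (Ltf), 6 with no signal filter, 4 with the replicate block and 9 with array weights or the range term, and ran from 1 to 8 over single arrays. Tumours against control HG-PIN gave 30 genes and 2 members. Here the genes numbered 65 with quantile normalization, 17 with 8 units added, 7 on 6 arrays, 938 with array weights and 189 with the range term, and 0 to 256 over single arrays. Members called numbered 4 with quantile normalization or the mean of probe sets, 0 on 6 arrays, 8 with array weights and 7 with the range term, and 0 to 5 over single arrays. Between the HG-PIN groups the main count of 0 genes became 4 on 6 arrays, 9 with array weights and 7 with the range term, and 0 to 6 over single arrays, with no member called in any setting. The members' median stayed between -3.28 and -2.89 in the first comparison, -3.24 and -2.31 in the second and 0.23 and 1.11 between the HG-PIN groups.

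Between the HG-PIN groups, changes near 0 turned sign. With quantile normalization Lcn2 stood at -0.0437. With array weights Reg3g stood at -0.0936, Pigr at -0.0751 and Slpi at 0.24, and with the range term Reg3g stood at -0.0064, Lcn2 at -0.16 and Slpi at 0.0239. Over single arrays the change ran from -0.0571 to 1.31 for Reg3b, -0.49 to 1.20 for Reg3g, -0.37 to 1.05 for Pigr, -0.26 to 0.46 for Lcn2, -0.21 to 0.21 for Slpi and -0.45 to 0.14 for Clu. The cause of these shifts was not tested. The number of arrays and signal near background limit what could be detected.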
